A study of Mus musculus with 6 samples.

Results

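The genes described are the fibulins and a closely related hemicentin: Fbln1, Fbln2, Fbln5, Fbln7, Efemp1 (fibulin 3), Efemp2 (fibulin 4) and Hmcn1 (hemicentin 1). They were taken by symbol from the deposited gene table. All 7 were among its 21778 genes, and 6 of the 7 were among the 14835 genes that passed the filter on low counts. Fbln1 was chosen because it was among the genes most clearly higher in the knockout, and Fbln2 because it lies next to Hdac11. The comparison of knockout with wild type is therefore given for these genes as a description, with no test.

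RNA was from primary myoblasts, the mononuclear precursors of muscle fibres, grown from hindlimb muscle cells of C57BL/6 mice sorted for alpha7-integrin and CD34. The cells were plated on a basement membrane matrix at 26000 cells per cm2 and kept for 24 h in medium with 2% horse serum, which starts differentiation. Of 6 libraries, 3 were from Hdac11-/- mice (KO) and 3 from wild-type mice (WT). The null allele lacks exon 3 and was made by crossing a floxed strain with mice that express Cre under the SOX2 promoter. The controls were WT littermates, and no age of the mice is stated. The coating means that all 6 cultures met matrix proteins that their own RNA does not report.

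Fibulins are secreted glycoproteins built from tandem calcium-binding EGF-like modules and a conserved C-terminal fibulin module. They bridge other matrix proteins in basement membranes, fibronectin networks and elastic fibres. Fibulin 4 and fibulin 5 carry lysyl oxidases and tropoelastin onto microfibrils, while fibulin 1 and fibulin 2 bind fibronectin, nidogen and the lectican versican. In muscle, such proteins belong to the matrix around myoblasts and fibres.

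The libraries held 16742457 to 22835394 counts. Hdac11, the deleted gene, was at 33.5 and 30.2 CPM (a gene's count as a share of the library total, adjusted by TMM) in KO replicates 1 and 3. In the library labelled KO replicate 2 it was at 76.4 CPM, within the WT values of 63.0, 79.5 and 73.8 CPM. Counts summed over a gene cannot report on its deleted exon. All 7 myoblast markers passed the filter and summed to 4926 to 6793 CPM in KO and 7493 to 8651 CPM in WT. The markers did not move together. Des and Itga7 were lower in KO without overlap, and Cdh15 and Chrna1 overlapped. Myod1 and Myf5 had log2 fold changes of -0.05 and -0.02. Pax7 went the other way without overlap, at 82.3, 108.8 and 127.3 CPM in KO against 54.6, 69.7 and 77.0 CPM in WT. The fibroblast marker Pdgfra stayed between 0.265 and 0.678 CPM and Dcn between 0 and 1.25 CPM. The 7 fibroblast markers in the table summed to 627.4 to 770.3 CPM in KO and 332.3 to 542.2 CPM in WT, almost all of it from Col3a1, at 327.1 to 765.6 CPM. These markers did not move together either. Col3a1 and Pdgfra were higher in KO without overlap. Ly6a was lower without overlap, at 0.398, 0.179 and 0.113 CPM in KO against 0.517, 0.932 and 0.635 CPM in WT. Col1a1 overlapped, with a log2 fold change of -0.88. Over all tested genes 23.4% did not overlap. Schwann cell markers, mostly Erbb3, summed to 145.2 to 408.5 CPM in KO and 424.3 to 859.8 CPM in WT. Sums for endothelial and for macrophage and leukocyte markers stayed at 6.31 CPM or less, while those for pericyte and for tenocyte markers overlapped between the groups. Within the pericyte list Abcc9 did not overlap, at 51.4, 18.2 and 16.7 CPM in KO against 57.4, 281.7 and 102.7 CPM in WT (edgeR adjusted p = 0.189, DESeq2 adjusted p = 0.00368). Some listed markers were not in the gene table. It held 7 of 10 for fibroblasts, 5 of 6 for endothelial cells, 6 of 7 for pericytes and 3 of 4 for tenocytes. For macrophages and leukocytes it held 4 of 6, and for Schwann cells 4 of 5. No marker in the table was at 0 in all libraries, but 21769 of its 21778 genes had counts. The part of other cell types in the results was not tested. In bulk RNA, fewer cells of a type and less RNA per cell cannot be told apart.

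Promoter windows are shown for Fbln1, Fbln2 and Efemp2, the members with the most transcripts per length, because Fbln1 and Efemp2 separated the groups and Fbln2 did not. Each runs from 250 bases before to 50 after an annotated start, on the plus strand of GRCm38.p6 in RefSeq. Capitals mark 2 motifs, searched on both strands. The first is the MyoD-type E-box CAGCTG, bound by myogenic factors, and the second the GC box GGGCGG or its complement CCGCCC, bound by Sp1.
Fbln1, second start, chr15:85205758-85206057: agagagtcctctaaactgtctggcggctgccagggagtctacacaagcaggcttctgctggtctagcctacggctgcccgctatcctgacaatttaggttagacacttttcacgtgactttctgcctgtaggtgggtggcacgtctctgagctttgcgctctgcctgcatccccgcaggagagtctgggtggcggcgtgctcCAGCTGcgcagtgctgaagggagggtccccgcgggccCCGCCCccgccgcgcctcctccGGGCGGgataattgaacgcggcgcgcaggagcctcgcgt
Fbln2, chr6:91212514-91212813: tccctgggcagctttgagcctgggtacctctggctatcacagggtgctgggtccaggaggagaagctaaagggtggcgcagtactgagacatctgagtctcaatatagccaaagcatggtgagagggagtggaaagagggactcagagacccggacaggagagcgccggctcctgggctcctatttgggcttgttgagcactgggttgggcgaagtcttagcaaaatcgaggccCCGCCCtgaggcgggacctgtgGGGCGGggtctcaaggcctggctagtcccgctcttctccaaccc
Efemp2, first start, chr19:5473696-5473995: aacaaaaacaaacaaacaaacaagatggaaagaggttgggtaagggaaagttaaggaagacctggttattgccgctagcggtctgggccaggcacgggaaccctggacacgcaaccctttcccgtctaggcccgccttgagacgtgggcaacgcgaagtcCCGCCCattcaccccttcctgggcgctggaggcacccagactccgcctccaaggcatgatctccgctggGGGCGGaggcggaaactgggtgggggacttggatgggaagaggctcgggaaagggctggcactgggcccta
The Fbln1 window held the MyoD-type E-box at bases -48 to -43 from the start. In 11 windows of the 7 members this motif was found only in the 2 overlapping windows of Fbln1, and 16.3% of 32851 mouse promoter windows hold it. The wider E-box CANNTG, which includes CAGCTG, was in 5 of the 11 windows, from 4 of 7 members, and in 72.3% of all windows. The GC box was in 7 of the 11 windows, from 5 of 7 members, and in 35.7% of all windows. Fbln7 and Hmcn1 were without it. Some windows of Fbln1 and of Efemp2 overlap, so they are not separate counts. The TATA box TATAAA was in 0 of the 11 windows, against 13.6% of all. A match describes letters only and is not evidence of binding.

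The encoded proteins differ widely in length. Translated from GENCODE vM1, the longest annotated forms ran from 440 residues for Fbln7 and 448 for Fbln5 to 705 for Fbln1, 1221 for Fbln2 and 5634 for Hmcn1. The calcium-binding EGF pattern occurred 8 times in Fbln1, 10 times in Fbln2, 6 times each in Fbln5, Efemp1 and Efemp2, 2 times in Fbln7 and 8 times in Hmcn1. Over the last 200 residues, which hold the fibulin module, Fbln5, Efemp1 and Efemp2 were closest to each other. Efemp1 and Efemp2 shared 59.8% of aligned residues, Fbln5 and Efemp2 53.3%, and Fbln5 and Efemp1 50.5%. The other 18 of 21 pairs shared 26.5% to 38.6%. The integrin-binding motif RGD began at residue 54 of Fbln5, the member known to bind integrins through it, at residue 421 of Fbln2 and at 2 places in Hmcn1, the first at residue 3939.

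Per kb of exon, Efemp2 had the highest level and Hmcn1 the lowest. The means over the 6 libraries were 18.5 ± 5.44 CPM per kb for Efemp2, 13 ± 6.16 for Fbln1 and 6.58 ± 4.07 for Fbln2 (SD, n = 6). Efemp1 was at 1.75 ± 0.702, Fbln5 at 1.38 ± 0.628, Fbln7 at 0.106 ± 0.0704 and Hmcn1 at 0.0576 ± 0.0508 CPM per kb. The range of each member met that of the next, except that Fbln5, at 0.681 CPM per kb or more, lay above Fbln7, at 0.217 or less. Within libraries, Efemp2 was above Fbln1 in 6 of 6, Fbln1 above Fbln2 in 4 of 6, and Fbln2 above Efemp1 in 5 of 6. With coding length in place of exonic length, Fbln5 passed Efemp1 and stood above it in 6 of 6 libraries.

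The make-up of the family pool differed between libraries. Of the summed CPM per kb, Fbln1 held 39.3%, 33.9% and 36.6% across the KO replicates, in order of number, against 27.3%, 16.4% and 27.1% across WT, with no overlap of the groups. Fbln1 was chosen for its higher level in KO, so its larger share there follows from that choice and nothing is read from it. Fbln2 took 9.57%, 19.2% and 6.68% in KO and 3.18%, 30.9% and 31.3% in WT, so WT replicate 1 lay below all KO libraries and the other WT libraries above them. Efemp2 took 37.3% to 59.5% over all 6, and both ends of that range were WT libraries.

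**Figure D1:**
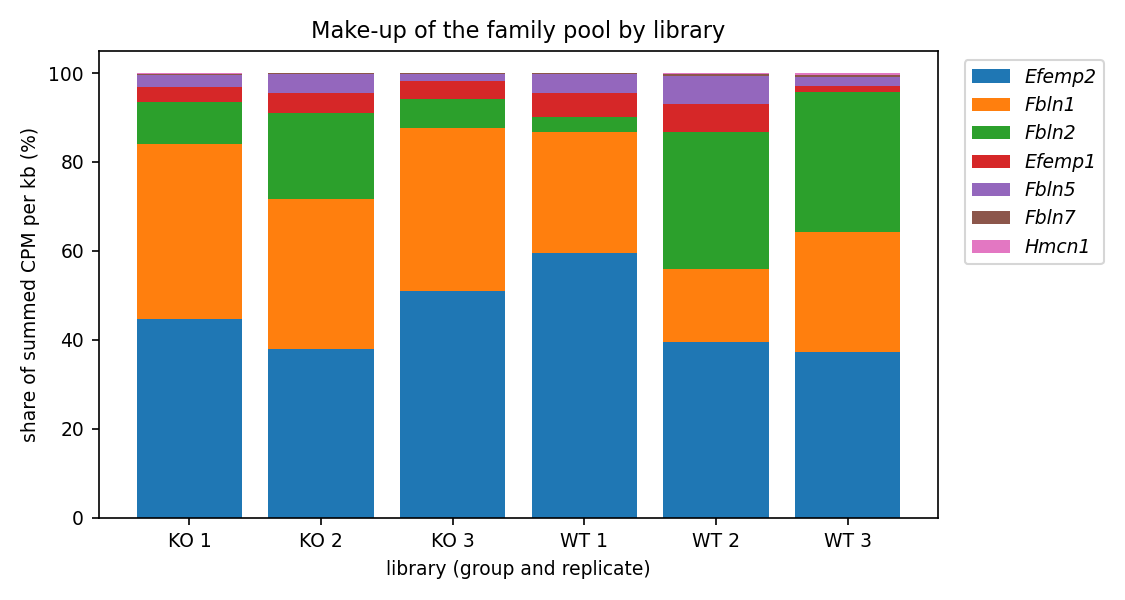
Share of each member in the summed CPM per kb of exon (y axis, %) for each of the 6 libraries (x axis). Efemp2, Fbln1 and Fbln2 make up most of each bar, and the Fbln2 part is 3.18% in WT replicate 1 against 30.9% and 31.3% in the other WT libraries.

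Fbln1, which encodes a fibronectin- and nidogen-binding fibulin of basement membranes and elastic fibres, was higher in all KO libraries. KO replicates 1 to 3 held 1667, 1668 and 1500 counts, or 83.0, 74.6 and 84.7 CPM. The WT libraries held, in the same order, 829, 426 and 714 counts, or 35.7, 24.8 and 37.8 CPM. The groups did not overlap: the lowest KO library stood 36.8 CPM above the highest WT library. The means were 80.8 ± 5.41 CPM in KO and 32.8 ± 6.97 CPM in WT (SD, n = 3), a ratio of 2.47, and the edgeR log2 fold change was 1.30 (SE 0.19). Its value in the library labelled KO replicate 2, where Hdac11 was not low, was the lowest of the KO group but close to the others. Without that library the log2 fold change was 1.36. The authors' deposited table gives a log2 fold change of 1.22 (SE 0.22) for Fbln1.

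Efemp2 encodes fibulin 4, which tethers lysyl oxidase during elastic fibre assembly. Replicates 1 to 3 gave 57.2, 50.5 and 71.3 CPM for KO, and 47.1, 36.3 and 31.5 CPM for WT. Here too the groups did not overlap, but the gap was 3.40 CPM, between KO replicate 2 and WT replicate 1. The means were 59.7 ± 10.6 and 38.3 ± 8.00 CPM (SD, n = 3), a ratio of 1.56 and a log2 fold change of 0.64 (SE 0.21). Of the 6 members tested, Fbln1 and Efemp2 were the 2 whose groups did not overlap, both higher in KO; over all tested genes 23.4% did not overlap, 13.2% with KO higher and 10.2% with KO lower. At an adjusted p threshold of 0.05, edgeR called 0 of the 6 (0% of all tested genes, with 17.7% under an unadjusted p of 0.05) and DESeq2 called Fbln1 alone (6.89% of all genes it gave an adjusted p). In the authors' deposited table Fbln1 was likewise the member with an adjusted p under 0.05, as were 6.33% of the 14510 genes given an adjusted p there and, on the KO-higher side, 4.2%. Since the members were chosen on this contrast, nothing is read from these counts.

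Fbln2 encodes a large fibulin that links fibronectin, nidogen, perlecan and versican. KO replicates 1 to 3 held 546, 1268 and 368 counts, and WT replicates 1 to 3 held 130, 1080 and 1111. In CPM these were 27.2, 56.7 and 20.8 in KO and 5.60, 62.9 and 58.8 in WT. WT replicate 1 was the lowest of all 6 libraries and the other WT libraries were the highest, so the KO values lay inside the WT range. Within WT the highest library exceeded the lowest by 11.2-fold, and within KO by 2.73-fold. The means were 34.9 ± 19.2 CPM in KO and 42.4 ± 32 CPM in WT (SD, n = 3), and the log2 fold change was -0.28 (SE 0.77). Leaving out the library labelled KO replicate 2 gave -0.81. Leaving out WT replicate 1 gave -0.78, and WT replicate 2, with the opposite sign, 0.12.

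Fbln2 varied widely within groups. Its pooled within-group SD was 1.49 on the log2 CPM scale, larger than that of 99.1% of 10811 genes with a mean of at least 5 CPM, whose median was 0.25. Fbln5 had an SD of 0.75, larger than that of 93.9% of these genes. Fbln1 and Efemp2 were near the middle, with SDs of 0.24 and 0.27 and 46.4% and 54.6% of genes below them. Transcripts of the X-inactivation RNA Xist and of the Y-linked Ddx3y split the libraries in another way. Xist was at 6.21 CPM in KO replicate 3 and 0.301 CPM in WT replicate 1 against at least 719 CPM in the others, and Ddx3y was at 99.3 and 132 CPM in these 2 libraries and at 0 in the other 4. These were also the libraries with the lowest Fbln2 of their group. The part of this split in the Fbln2 values was not tested.

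**Figure D2:**
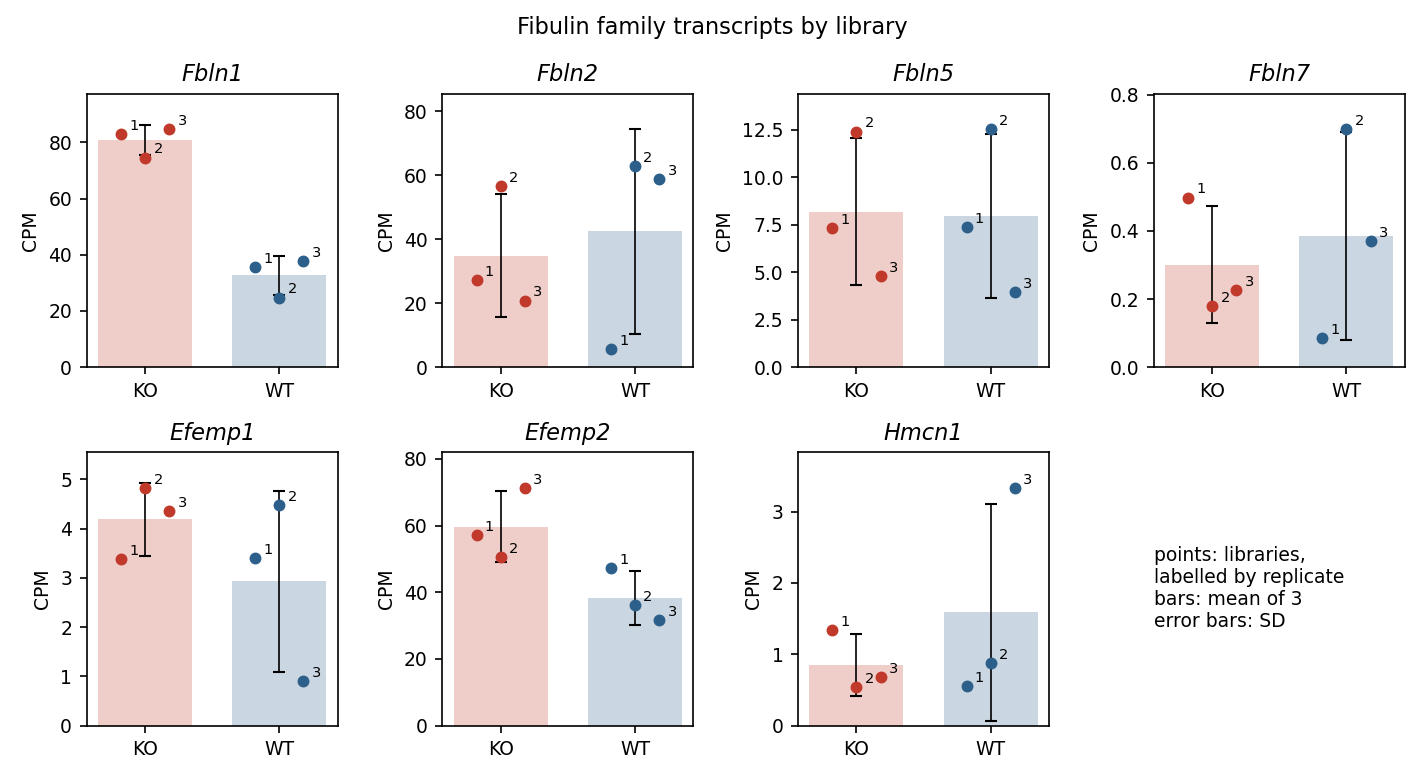
Level of each member in CPM (y axes, linear, from 0) in KO and WT. Points are libraries labelled by replicate number, bars are means of 3 and error bars are SD; the groups are apart for Fbln1 (74.6 CPM or more in KO, 37.8 or less in WT) and for Efemp2, and they overlap for the other members.

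Fbln2 is the nearest gene to Hdac11. On GRCm38, Fbln2 spans 91212460 to 91272540 on chromosome 6 and begins 37767 bases past the end of Hdac11, with 0 RefSeq genes in between. On the other side of Hdac11, Nup210, which encodes a nuclear pore membrane protein, ends 38347 bases away. Set beside Hdac11, Fbln2 was low in KO replicates 1 and 3 and high in the library labelled KO replicate 2 and in WT replicates 2 and 3, the libraries with the most Hdac11. WT replicate 1 broke that order, with Hdac11 at 63.0 CPM and Fbln2 at 5.60 CPM. Nup210 was at 1.29, 2.46 and 1.58 CPM in KO and 1.55, 3.61 and 2.54 CPM in WT, a log2 fold change of -0.52 (SE 0.44). Of the 18 tested genes within 1 Mb of Hdac11, Fbln2 among them, 4 had a positive and 14 a negative log2 fold change. Over all 14835 tested genes, 7293 were positive and 7542 negative. The median was -0.0086 over all tested genes and -0.27 for the 18. By unadjusted edgeR p under 0.05, 2 of them were higher and 3 lower, where 9.88% and 7.83% of all genes were so. None of the 18 had an edgeR adjusted p under 0.05. The largest fold change was that of Grip2, encoding a glutamate receptor interacting protein, with a log2 fold change of -2.23 (SE 0.82). Grip2 was at 18.0, 10.5 and 6.44 CPM in KO and 7.19, 91.8 and 65.3 CPM in WT, low in WT replicate 1 as Fbln2 was.

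**Figure D3:**
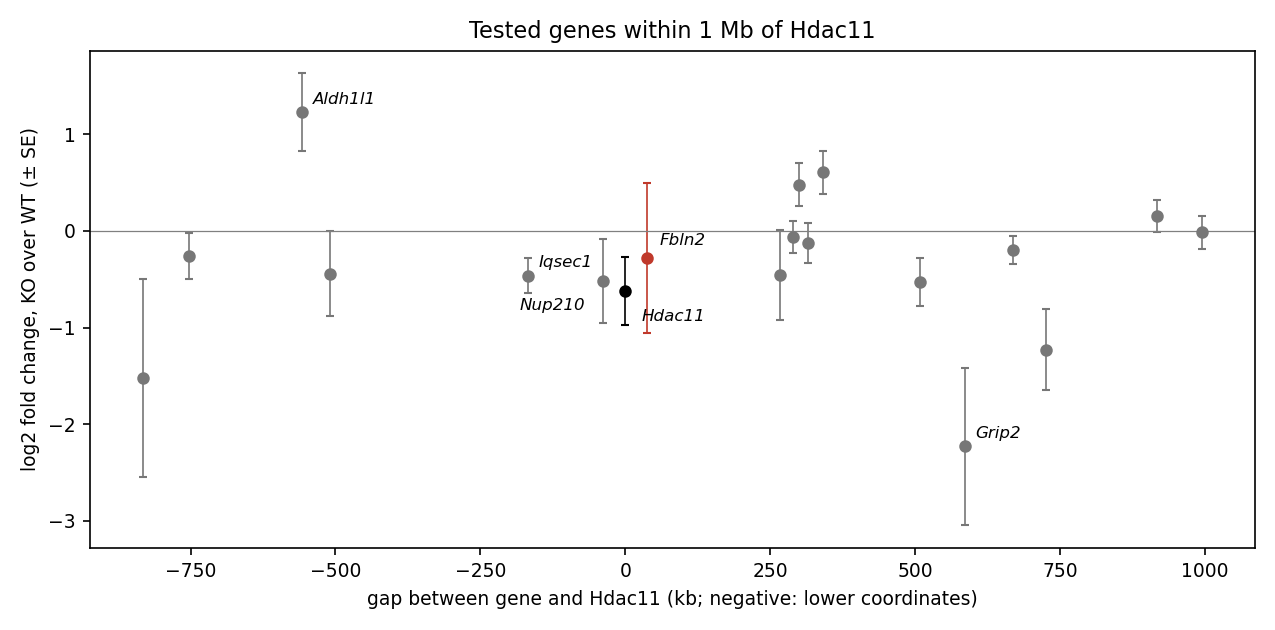
Log2 fold change of KO over WT with its SE (y axis) for Hdac11 and the 18 tested genes within 1 Mb, by their gap to Hdac11 in kb (x axis). Fbln2 (red) is at -0.28 with an SE of 0.77, and 14 of the 18 genes are below 0, as are 7542 of all 14835 tested genes.

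The remaining members were low. Fbln5 encodes an elastogenic fibulin that binds integrins. It was at 7.32, 12.4 and 4.80 CPM in KO and 7.36, 12.5 and 3.97 CPM in WT, so the groups covered the same range, and the log2 fold change was 0.04 (SE 0.49). Efemp1, whose protein fibulin 3 binds the protease inhibitor Timp3, was at 3.39, 4.83 and 4.35 CPM in KO and 3.40, 4.48 and 0.90 CPM in WT. WT replicate 3 was its low library, and its log2 fold change of 0.52 (SE 0.54) became 0.10 without that library. Hmcn1 encodes a very large basement membrane protein of immunoglobulin and EGF-like modules. It was at 1.34, 0.537 and 0.678 CPM in KO and 0.560, 0.873 and 3.33 CPM in WT. The high value was again WT replicate 3, and the log2 fold change of -0.89 (SE 0.73) turned to 0.27 without it. Fbln7, a cell adhesion fibulin, had 39 counts in all 6 libraries together, between 0.0861 and 0.699 CPM, and did not pass the filter.

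The genes most like Fbln1 over the 6 libraries all separated the groups as it did. Among 10811 genes with a mean of at least 5 CPM, the 5 with the highest Pearson correlation of log2 CPM were Aspm (r = 0.998), which organises spindle poles, the DNA helicase gene Pif1 (r = 0.998), the acyltransferase gene Mboat1 (r = 0.996), and Cenpe (r = 0.993) and Kif14 (r = 0.993), both mitotic kinesins. These values describe 6 libraries, and each gene also separates the groups, so a high r comes in large part from the group difference for which Fbln1 was chosen: 620 genes, or 5.74%, had an r over 0.9 with Fbln1. Fbln1 and these 5 genes were all lowest in WT replicate 2, which follows in part from their being picked by r over the same libraries. The order of the other libraries differed for some: Kif14 was lowest of the KO group in KO replicate 3, at 23.4 CPM, where Fbln1 was highest. Aspm was at 60.4, 59.9 and 65.8 CPM in KO and 26.4, 17.8 and 26.9 CPM in WT. Over the 10 listed genes of mitosis and replication, r with Fbln1 ran from 0.86 to 0.98. Over 12 genes of muscle differentiation it ran from -0.88 to -0.70. Efemp2 gave 0.83 to 0.91 and -0.91 to -0.67. Both lists were chosen with earlier results of these data known, and the genes of each shifted in the same direction between the groups. These r values therefore also come in large part from the group difference, and nothing is read from them.

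For Fbln2, r with the mitosis and replication genes ran from -0.32 to -0.11 and with the muscle differentiation genes from -0.16 to 0.47. The genes most like it were Pan2 (r = 0.990), a deadenylase subunit gene, Arhgap42 (r = 0.989) and Gm2367 (r = 0.964). All 3 were lowest in WT replicate 1, which follows in part from their being picked by r over the same libraries. Their differences were smaller than those of Fbln2: Arhgap42 was at 38.4, 44.6 and 34.1 CPM in KO and 19.4, 47.0 and 48.1 CPM in WT. Only 44 genes, or 0.407%, had an r over 0.9 with Fbln2.

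**Figure D4:**
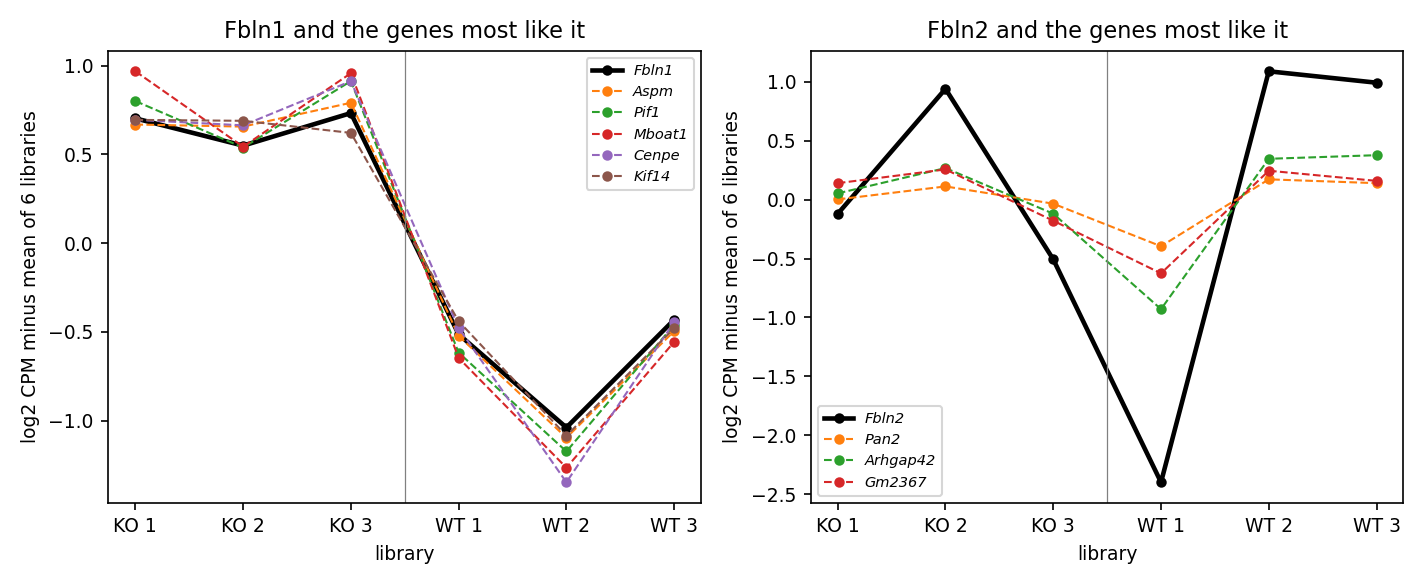
Log2 CPM minus the mean of the 6 libraries (y axis) by library (x axis) for Fbln1 and the 5 genes most like it (left) and for Fbln2 and the 3 genes most like it (right). The left lines drop together from KO to WT and are lowest in WT replicate 2, while on the right Fbln2 is lowest in WT replicate 1 and its partners move less. The like genes were picked by r over these same libraries, so shared low points follow in part from that choice.

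Genes of division and of contraction differed between the groups in the same libraries. The 10 genes of mitosis and replication all had positive log2 fold changes, the median being 1.48. By unadjusted edgeR p under 0.05 there were 10 higher, by adjusted p 0, and DESeq2 called 10. Over all tested genes 9.88% were higher and 7.83% lower by unadjusted edgeR p. DESeq2 called 4.49% higher and 2.4% lower of the genes it gave an adjusted p. The proliferation marker Mki67 was at 330, 239 and 356 CPM in KO and 158, 85.9 and 125 CPM in WT. The 12 muscle differentiation genes all had negative ones, the median being -1.36. By unadjusted edgeR p 9 were lower, by adjusted p 0, and DESeq2 called 8. Leaving out a library kept the first count at 10 and moved the second between 3, without the library labelled KO replicate 2, and 12, without KO replicate 1; it was 5 without KO replicate 3 and 4 without WT replicate 2 or WT replicate 3. Whether the higher Fbln1 and Efemp2 levels are tied to these programs was not tested.

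Among 18 genes of elastic fibres and microfibrils, where fibulins 4 and 5 act, 15 passed the filter. Their median log2 fold change was 0.10, with 9 positive and 6 negative. By unadjusted edgeR p under 0.05 there were 2 higher (Ltbp4 and Loxl3) and 0 lower, and by adjusted p 0. Over all tested genes the unadjusted shares were 9.88% higher and 7.83% lower. Groups did not overlap for 3 of the 15, all higher in KO. Of all tested genes, 13.2% were higher and 10.2% lower without overlap. Ltbp4 encodes a latent TGF-beta binding protein that promotes the deposition of fibulin 5, and Loxl3 a lysyl oxidase. Ltbp4 was at 56.8, 87.5 and 62.7 CPM in KO and 26.5, 26.7 and 41.9 CPM in WT, with no overlap. Its log2 fold change was 1.12 (SE 0.25; edgeR adjusted p = 0.138, DESeq2 adjusted p = 0.00546), which made it the 1 gene of the 15 that DESeq2 called. Of all genes given a DESeq2 adjusted p, 4.49% were called higher and 2.4% lower. For Loxl3 the KO mean was 11.4 ± 1.81 CPM against a WT mean of 6.78 ± 1.01 CPM (SD, n = 3; edgeR adjusted p = 0.206). The most abundant of the list, Ltbp1 and Ltbp3, had log2 fold changes of 0.18 (SE 0.16) and -0.12 (SE 0.22). Mfap4, a microfibril-associated gene, reached 35.7 CPM in WT replicate 2 and 0.282 to 5.98 CPM elsewhere.

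Elastin itself was hardly transcribed. Eln, named here after its value was seen, was at 0.0431 to 0.291 CPM and did not pass the filter. The partners of fibulins 4 and 5, also named after their values were seen, were present: Lox was at 3.67 to 22.5 CPM and Loxl1 at 27.1 to 73.3 CPM, with log2 fold changes of -0.48 (SE 0.60) and -0.51 (SE 0.29) and overlapping groups.

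Of 16 genes for binding partners of fibulins, 15 were matched and 13 tested, with a median log2 fold change of -0.26. By unadjusted edgeR p under 0.05 there were 4 higher and 1 lower, by adjusted p 0, and DESeq2 called 0. Of all tested genes, 9.88% were higher and 7.83% lower by unadjusted p. DESeq2 called 4.49% higher and 2.4% lower of the genes it gave an adjusted p. Groups did not overlap for 3 of the 13, all higher in KO. Of all tested genes, 13.2% were higher and 10.2% lower without overlap. Nid1, the basement membrane linker nidogen, was at 97.6, 115 and 113 CPM in KO and 47.1, 85.1 and 59.9 CPM in WT, with no overlap (edgeR adjusted p = 0.193). Vcan, encoding the lectican versican, was at 149, 117 and 134 CPM in KO and 18.5, 79.9 and 71.8 CPM in WT, with no overlap and the lowest value in WT replicate 1 (edgeR adjusted p = 0.247). Agrn, for the proteoglycan agrin, had a log2 fold change of 0.44 (SE 0.18; edgeR adjusted p = 0.267). Hspg2, for perlecan, lay the other way at -0.59 (SE 0.24; edgeR adjusted p = 0.265). Fn1, the fibronectin gene, was at 454 to 616 CPM in KO and at 298, 444 and 1593 CPM in WT.

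Of 11 genes for proteases of the matrix, 8 were tested, with a median log2 fold change of 0.21. Groups did not overlap for 1 of the 8, higher in KO, where 13.2% of all tested genes were so. Mmp14, a membrane-bound metalloprotease, was at 127, 140 and 132 CPM in KO and 52.1, 64.3 and 91.7 CPM in WT. Its groups did not overlap, its log2 fold change was 0.94 (SE 0.22; edgeR adjusted p = 0.144), and it was the gene of this list that DESeq2 called (adjusted p = 0.00971). Adamts1, for which fibulin 1 is a cofactor, overlapped between groups, at 10.6 to 58.3 CPM in KO and 28.6 to 114 CPM in WT. Of 20 other matrix glycoprotein genes, 14 were tested, with a median of -0.33, 0 higher and 1 lower by unadjusted edgeR p, 0 by adjusted p and 0 called by DESeq2. The lower one was Postn, the periostin gene, whose mean in WT came from 45.2 CPM in WT replicate 3. Of the 13667 genes with a DESeq2 adjusted p, 4.49% were called higher and 2.4% lower. By unadjusted edgeR p, 9.88% of all tested genes were higher and 7.83% lower.

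**Figure D5:**
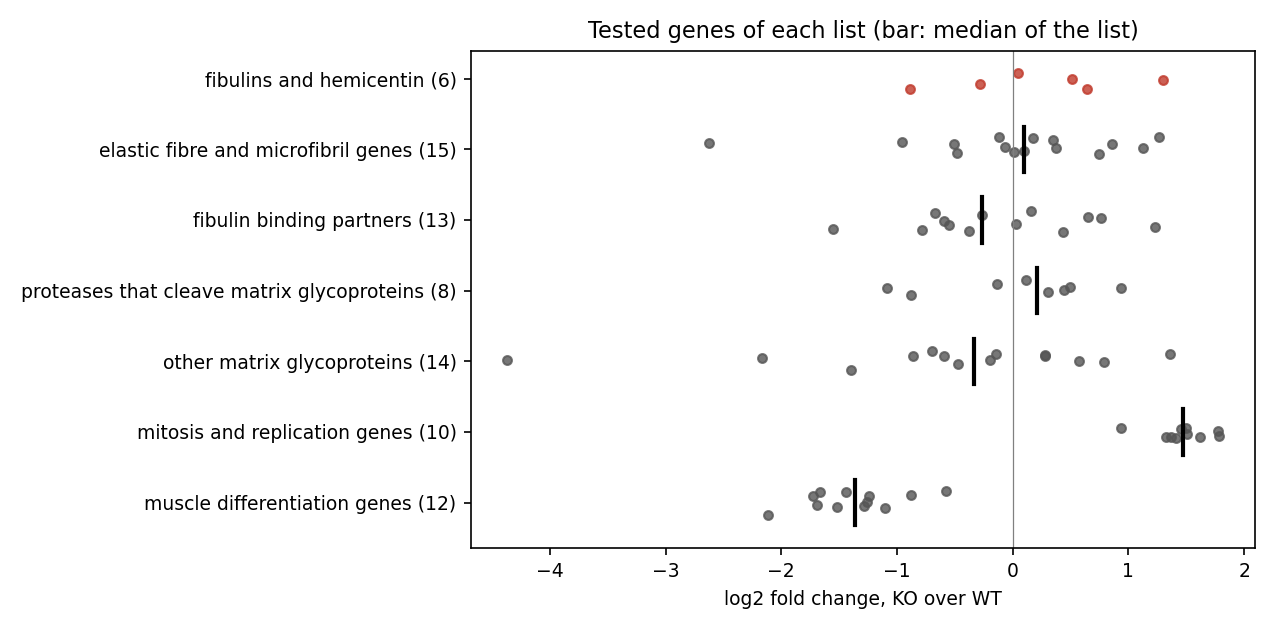
Log2 fold change of KO over WT (x axis) for the tested genes of each list (rows, number tested in brackets). A bar marks the median of each list, and the tested fibulins and Hmcn1 are in red without a bar. The 4 matrix lists have medians between -0.33 and 0.21, while those of mitosis and replication and of muscle differentiation lie at 1.48 and -1.36.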

How the data were processed

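Stranded poly(A) libraries from 100 ng RNA were analysed, with group and replicate number from the titles. Tools named in the submitters' processing notes are TopHat2 2.0.8 with Bowtie2, featureCounts, DESeq2, Trimmomatic and FastQC, and the build is GRCm38; no settings, strand included, are stated. Raw counts per gene were deposited. Its normalized columns are a signal that the authors made as counts over a size factor of each library, going by the values. The deposited log2 fold changes with their errors, the test score and the p-values are the authors' own; 7268 adjusted p-values were NA and stayed so.

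Raw counts were filtered with edgeR's filterByExpr (14835 genes kept, 6943 dropped), scaled by TMM and fitted with edgeR 4.0.16 quasi-likelihood tests in R 4.3.3, with Benjamini-Hochberg adjustment over all tested genes. SEs come from the F statistic. DESeq2 1.42.0 and limma 3.58.1 (voom) were alternatives, beside other scalings, filters, a replicate block and each library left out. Correlations used log2 CPM with a prior count of 2. The replicates share numbers, but deviations of same-numbered libraries did not move together (r = -0.25, -0.07 and 0.05), so no pairing was assumed. The design text calls the replicates biological, without naming the animals. The p-values set the difference between the groups against the spread between these libraries within groups.

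Exonic and coding lengths and translated proteins are from GENCODE vM1 (mm9), used for lengths and patterns only; the fixed plan named RefSeq proteins, which were not used here. Positions and promoters are from RefSeq on GRCm38.p6, which matched 82.8% of symbols. No other RefSeq gene overlapped a member. Genes were named by a fixed rule: the members, up to 4 genes per list with the smallest p and the 2 most abundant, the genes most like Fbln1 and Fbln2, and genes within 1 Mb of Hdac11; a subset is printed. The members and lists were chosen with earlier results of these data known.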

Additional observations from a re-analysis of the deposited data

How the results depend on the processing

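The log2 fold changes of Fbln1, Efemp1 and Efemp2 kept their sign in 13 of 13 alternatives, at 1.14 to 1.44, 0.10 to 0.95 and 0.51 to 0.83. Those of Fbln2 and Fbln5 kept it in 8 and 11 of 13, at -0.81 to 0.31 and -0.38 to 0.53; for Fbln2 limma-voom gave 0.31 and the replicate block 0.14. That of Hmcn1 kept it in 12, at -1.38 to 0.27 over the libraries left out. Scaling by library totals moved the median of all genes to 0.14. The cause of these differences was not tested.

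Over all genes edgeR called 0 higher and 0 lower, as did limma-voom and the replicate block, while DESeq2 called 613 and 328 and the authors' deposited table held 609 and 309. By unadjusted edgeR p under 0.05 there were 2626 genes, 2306 with the replicate block, and 1338 to 3133 with a library left out, the lowest being without KO replicate 3 (1338) and without WT replicate 2 (1609). Among list genes at an unadjusted p under 0.05, leaving out a library gave 2 to 5 elastic fibre, 2 to 6 partner, 1 to 2 protease, 0 to 5 other glycoprotein and 3 to 12 muscle differentiation genes, and 10 of 10 for mitosis. The replicate block gave 2 protease genes, and DESeq2 and limma-voom gave 3 and 0 other glycoprotein genes. With coding length Fbln5 ranked 4 and Efemp1 ranked 5. Fbln7 and Hmcn1, with 39 and 142 counts in all, are limited by depth.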

Other observations

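The 50 tested genes of the 4 matrix lists had their lowest value in WT replicate 1 for 17 genes (34.0%, against 12.1% of all tested genes) and their highest value in WT replicate 3 for 14 genes (28.0%, against 14.6%). These counts were made after the values were seen and were not tested. In WT replicate 1, Fbln2 was accompanied at its lowest by Fbn1, encoding the microfibril protein fibrillin 1, at 23.5 CPM against 66.3 to 88.6 CPM in the other libraries, and by Vcan at 18.5 CPM against 71.8 to 149 CPM.

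In WT replicate 3, where Hmcn1 was highest and Efemp1 lowest, other matrix genes stood far above the remaining libraries. Tnc, encoding tenascin C, was at 665 CPM against 13.8 to 193 CPM. Fn1 was at 1593 CPM against 298 to 616 CPM, and Postn at 45.2 CPM against 0 to 3.44 CPM. Loxl2, a lysyl oxidase gene, was at 48.4 CPM in that library and at 0.0431 to 0.697 CPM in the other 5, and the filter by group dropped it.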
